A study of Mus musculus with 8 samples.

Results

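The 41 genes described here mark the cells that cover, connect and ensheathe the heart muscle: the epicardium, the cardiac fibroblasts with the extracellular matrix they lay down, and the mural cells (pericytes and smooth muscle cells) of the coronary vessels. They were taken as a fixed list of symbols, and all 41 were found among the 53465 genes of the deposited table. For this description they were divided into 11 epicardial, 10 fibroblast, 12 matrix and 8 mural genes. Poly(A) RNA from heart ventricles of mouse embryos at E15.5 was sequenced in 4 *Nrg1GOF* and 4 wild-type (WT) libraries. *Nrg1GOF* embryos carry a neuregulin-1 transgene at the Rosa26 locus and a Cre driver. The sample labels write this genotype as Rosa26Nrg-1;Nkx5.5-Cre, whereas the series title names the driver Nkx2.5-Cre, which acts in cells of the early cardiac lineage. The WT embryos are given no allele, and the labels name neither the litter nor the side of the ventricle. Replicates are described as 1 ventricle each, so a library stands for 1 sample of tissue and mixes the RNA of all its cells.

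The epicardium is a sheet of mesothelial cells on the surface of the heart. Some of its cells lose their contacts with each other, enter the muscle wall and become most of the fibroblasts and mural cells of the ventricle. It also makes retinoic acid and growth factors that act on the myocardium below it. Fibroblasts secrete collagens, fibronectin and elastic fibre proteins, and mural cells wrap the coronary endothelium and regulate vessel tone. In bulk RNA of this kind, fewer cells of a type and less RNA per cell cannot be told apart.

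Levels are given as counts-per-million (CPM) on library sizes scaled by trimmed mean of M-values, always in the order of libraries 1 to 4. Fold changes compare *Nrg1GOF* with WT on the log2 scale and carry their standard error (SE), n = 4 libraries per group. A gene is described as risen or fallen where its edgeR adjusted p, taken over all 15580 genes tested, was under 0.05. Library totals lay between 8038641 counts (*Nrg1GOF* library 4) and 26786039 counts, and 3 counts corresponded to between 0.115 and 0.375 CPM. *Nrg1* itself was at 59.7 to 63.7 CPM in *Nrg1GOF* and 3.07 to 4.47 CPM in WT. The 4 WT libraries were not alike. Libraries 1 and 2 lay close together, as did libraries 3 and 4, and summed transcripts of 7 red blood cell genes were at 12977 and 12143 CPM in the first pair against 5457 and 4383 CPM in the second. Mitochondrial transcripts moved with the same split. They were at 4.3% and 4.48% of counts in WT libraries 1 and 2, and at 5.78% in both WT libraries 3 and 4. In *Nrg1GOF* they were at 3.1% to 4.35%, a range that overlapped WT library 1, and their part in the results below was not tested. Of the 41 genes, 36 were higher in both libraries of the first WT pair than in both of the second, against 30.6% of all genes tested, and only *Wt1* was lower in both. The labels name no date, lane or litter that matches the pairs, so the counts and medians of the 41 genes are also given against each pair, as are counts for most other lists.

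All 41 genes passed the filter on low counts and were tested. In *Nrg1GOF*, 32 rose and 2 fell, whereas 28.7% of all genes tested were called, 15.9% as higher and 12.8% as lower. The 2 that fell were *Rgs5* and *Acta2*, both mural genes. The other 7 (*Msln*, *Aldh1a2*, *Thy1*, *Gpc3*, *Eln*, *Abcc9* and *Myh11*) were not called. In the same 34 genes the 4 *Nrg1GOF* libraries did not overlap the 4 WT libraries, which held for 16.6% of all genes in the higher and 14.1% in the lower direction. The median log2 fold change was 0.73 over the 41 genes, against -0.01 over all genes tested. By class, 9 of 11 epicardial genes rose (median 0.74), as did 8 of 10 fibroblast genes (median 0.61) and 11 of 12 matrix genes (median 0.78). Mural genes went both ways, with 4 of 8 higher and 2 lower (median 0.01).

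**Figure D1:**
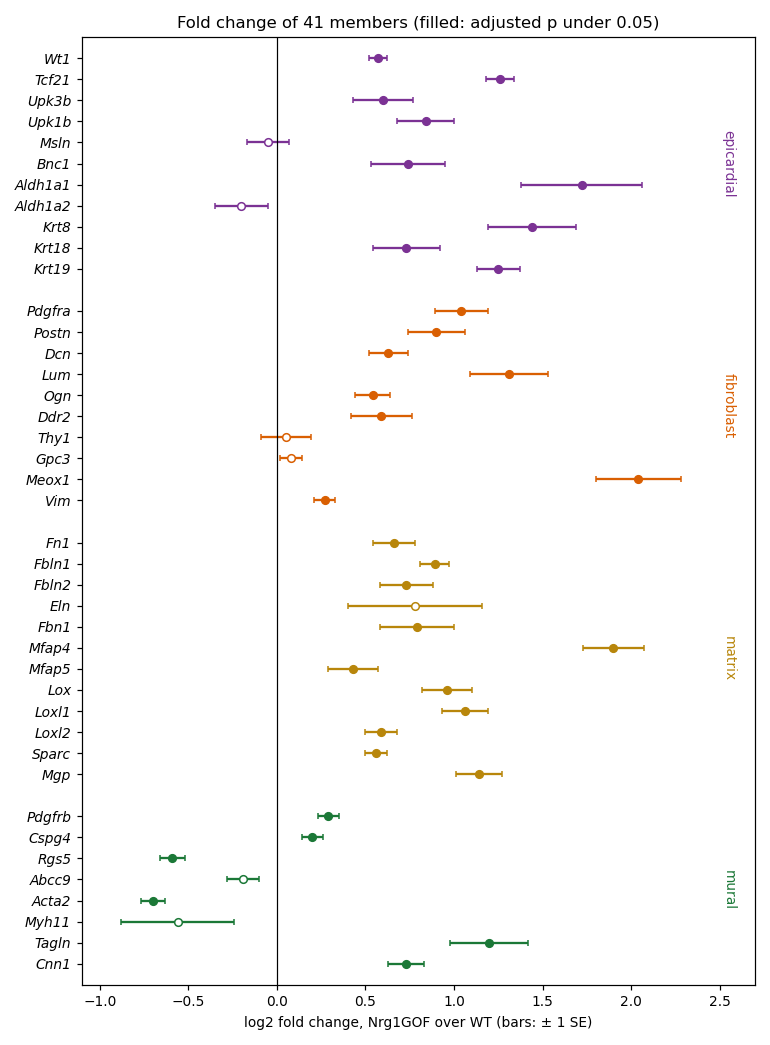
Log2 fold change of *Nrg1GOF* over WT (horizontal axis) for each of the 41 genes, grouped from top to bottom as epicardial, fibroblast, matrix and mural. Points are edgeR estimates, bars are ± 1 SE, and filled points had an adjusted p under 0.05. Filled points lie to the right of 0 except for *Rgs5* (-0.59) and *Acta2* (-0.70).

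Of the 34 genes called, 25 (23 higher, 2 lower) were called under each of 21 other ways of testing, scaling, filtering or choosing libraries, and 9 were lost at least once. The same direction of change was seen against both WT pairs for all 34. Against WT libraries 1 and 2 alone the median log2 fold change was 0.63 for the epicardial, 0.41 for the fibroblast, 0.49 for the matrix and -0.10 for the mural genes. Against WT libraries 3 and 4 alone the medians were 1.06, 0.87, 1.17 and 0.21 in the same order. In the first comparison 25 of the genes rose and 4 fell (10.5% and 8.13% of all genes), and in the second 33 rose and 2 fell (16.0% and 11.6%).

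**Figure D2:**
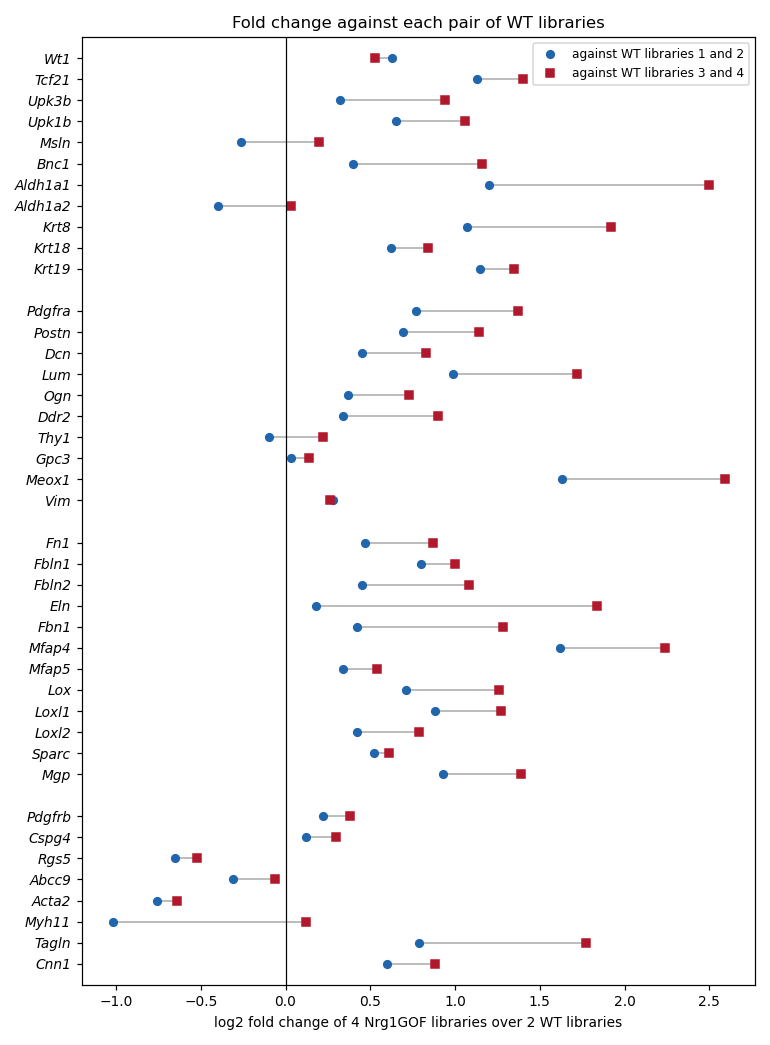
Log2 fold change of the 4 *Nrg1GOF* libraries (horizontal axis) against WT libraries 1 and 2 (circles) and against WT libraries 3 and 4 (squares) for each gene, joined by a line. Squares lie to the right of circles for most genes, with the widest gap at *Eln* (0.18 and 1.84), and *Msln*, *Thy1*, *Aldh1a2* and *Myh11* have one value on either side of 0.

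Of the transcription factors in the epicardial class, *Wt1*, *Tcf21* and *Bnc1*, all 3 rose, the last with a call that several alternatives removed. *Wt1*, a zinc finger factor of the epicardium and of the cells that leave it, stood at 39.6, 40.3, 38.9 and 40.5 CPM in *Nrg1GOF* and at 26.1, 25.3, 28.2 and 27.1 CPM in WT. These are narrow groups with a clear gap, and the log2 fold change was 0.57 (SE 0.05, edgeR adjusted p = 7.73e-05). *Tcf21*, a helix-loop-helix factor needed for the fibroblast fate, was at 53.6, 57.8, 62.0 and 59.4 CPM against 27.2, 25.7, 21.9 and 22.3 CPM. It rose 2.40-fold (log2 fold change 1.26, SE 0.08, edgeR adjusted p = 1.08e-05), and neither factor lost its call under any alternative. *Bnc1*, a zinc finger protein of mesothelium and other epithelia, was at 12.2, 12.6, 9.88 and 13.3 CPM against 9.82, 8.13, 5.99 and 4.71 CPM. *Nrg1GOF* library 3 nearly touched WT library 1, and the rise of 0.74 (SE 0.21, edgeR adjusted p = 0.0264) was lost without *Nrg1GOF* library 1 (0.0607), 2 (0.0734) or 4 (0.0570) or WT library 3 (0.0702), and against WT libraries 1 and 2 (0.108).

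Surface proteins of the mesothelium did not move as one. *Upk3b*, a uroplakin used as a marker of mesothelial cells, was at 41.4, 40.5, 36.8 and 51.8 CPM in *Nrg1GOF* and at 34.8, 32.6, 22.2 and 22.0 CPM in WT. The groups were separated by a small gap, set by WT libraries 1 and 2 (log2 fold change 0.60, SE 0.17, edgeR adjusted p = 0.0221). This call was lost without *Nrg1GOF* library 4 (0.0513), WT library 3 (0.0558) or WT library 4 (0.0558), and against WT libraries 1 and 2 (0.104). *Upk1b*, a uroplakin of the tetraspanin family, was lower throughout, at 12.7, 11.6, 9.88 and 13.1 CPM against 6.50, 8.51, 6.31 and 5.04 CPM. It rose by 0.84 on the log2 scale (SE 0.16, edgeR adjusted p = 0.00383). *Msln* encodes mesothelin, a membrane-anchored protein of mesothelial cells, and was at 22.7, 23.9, 22.8 and 25.3 CPM against 27.9, 28.4, 21.5 and 19.7 CPM. All 4 *Nrg1GOF* libraries fell between the 2 WT pairs, and the log2 fold change was -0.05 (SE 0.12, edgeR adjusted p = 0.814), with -0.26 against the first WT pair and 0.20 against the second.

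The 2 retinaldehyde dehydrogenases, which make retinoic acid from retinal, also parted. *Aldh1a1* was at 8.12, 7.57, 5.0 and 4.75 CPM in *Nrg1GOF* and at 3.10, 2.45, 1.13 and 1.15 CPM in WT. It had the largest fold change of the epicardial genes (3.29-fold, log2 fold change 1.72, SE 0.34, edgeR adjusted p = 0.00478) at the lowest level, with as few as 28 counts in a library. *Aldh1a2*, the main retinoic acid enzyme of the embryonic epicardium, was at 19.4, 19.2, 14.2 and 19.8 CPM against 22.1, 25.4, 18.8 and 16.7 CPM. The groups overlapped, and its log2 fold change was -0.20 (SE 0.15, edgeR adjusted p = 0.356). *Msln* and *Aldh1a2* were thus the members of the epicardial class that did not pass the test. Relative to *Wt1* in the same library, *Msln* was at 0.575 to 0.623 in *Nrg1GOF* against 0.728 to 1.12 in WT, and *Aldh1a2* at 0.366 to 0.491 against 0.616 to 1.00. Neither pair of ranges overlapped.

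All 3 keratins rose. Keratins 8, 18 and 19 build the intermediate filaments of simple epithelia, among them the epicardium. *Krt8* was at 9.35, 10.1, 6.29 and 10.3 CPM in *Nrg1GOF* and at 3.90, 4.64, 2.22 and 2.50 CPM in WT (log2 fold change 1.44, SE 0.25, edgeR adjusted p = 0.00236). *Krt18*, the partner of *Krt8* and its neighbour on chromosome 15 (GRCm38, *Krt8* at 101996698 to 102004482 and *Krt18* at 102028180 to 102032027), was at 10.3, 9.86, 7.95 and 13.8 CPM against 6.23, 7.15, 6.87 and 4.67 CPM. *Krt19* was the most abundant of them, at 47.5, 45.3, 34.3 and 50.4 CPM against 21.2, 18.4, 18.4 and 16.2 CPM. *Nrg1GOF* library 3 was the lowest of its group in each keratin, yet above each WT library. The log2 fold change was 0.73 for *Krt18* (SE 0.19, edgeR adjusted p = 0.0152) and 1.25 for *Krt19* (SE 0.12, edgeR adjusted p = 0.000107). *Krt18* lost its call against WT libraries 1 and 2 alone (0.0687).

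Among 7 further epicardial genes (*Tbx18*, *Sema3d*, *Lrrn4*, *Rspo1*, *Muc16*, *Gpm6a* and *Scx*), 4 rose and 1 fell, with a median log2 fold change of 0.54. Against WT libraries 1 and 2 alone 2 were higher and 0 lower, against WT libraries 3 and 4 alone 5 were higher and 1 lower, and with the WT pairs summed 2 were called. *Lrrn4*, a leucine-rich repeat protein of mesothelium, was at 15.8 to 19.0 CPM against 8.69 to 12.6 CPM (0.74, SE 0.13, edgeR adjusted p = 0.00202). *Scx*, which encodes scleraxis, a factor of tendon and some epicardial cells, rose by the same amount (0.74, SE 0.18, edgeR adjusted p = 0.0129). *Tbx18*, a T-box factor of the epicardium, was lower, at 40.4 to 52.0 CPM against 53.9 to 62.3 CPM in WT (-0.33, SE 0.08, edgeR adjusted p = 0.0109). Both *Scx* and *Tbx18* lost their calls under 2 of the 21 alternatives.

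Fibroblast genes rose in 8 of 10 cases. *Pdgfra*, the platelet-derived growth factor receptor that marks cardiac fibroblasts, was at 148, 146, 160.5 and 124 CPM in *Nrg1GOF* and at 86.9, 82.3, 55.4 and 57.4 CPM in WT. That is a 2.05-fold rise (log2 fold change 1.04, SE 0.15, edgeR adjusted p = 0.000871). *Postn* encodes periostin, a matricellular protein of fibroblasts and valve cells, and was at 1249, 1234, 1523 and 936 CPM against 758, 773, 516 and 609.6 CPM. The lowest *Nrg1GOF* value, in library 4, stayed above the highest WT value (log2 fold change 0.90, SE 0.16, edgeR adjusted p = 0.00268). *Dcn*, the collagen-binding proteoglycan decorin, was at 268, 265, 290.1 and 239 CPM against 189, 199.7, 149 and 151 CPM. It rose by 0.63 (SE 0.11, edgeR adjusted p = 0.00184). These 3 genes were called under each alternative, and they also rose against the first WT pair, by 0.77, 0.69 and 0.45.

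**Figure D3:**
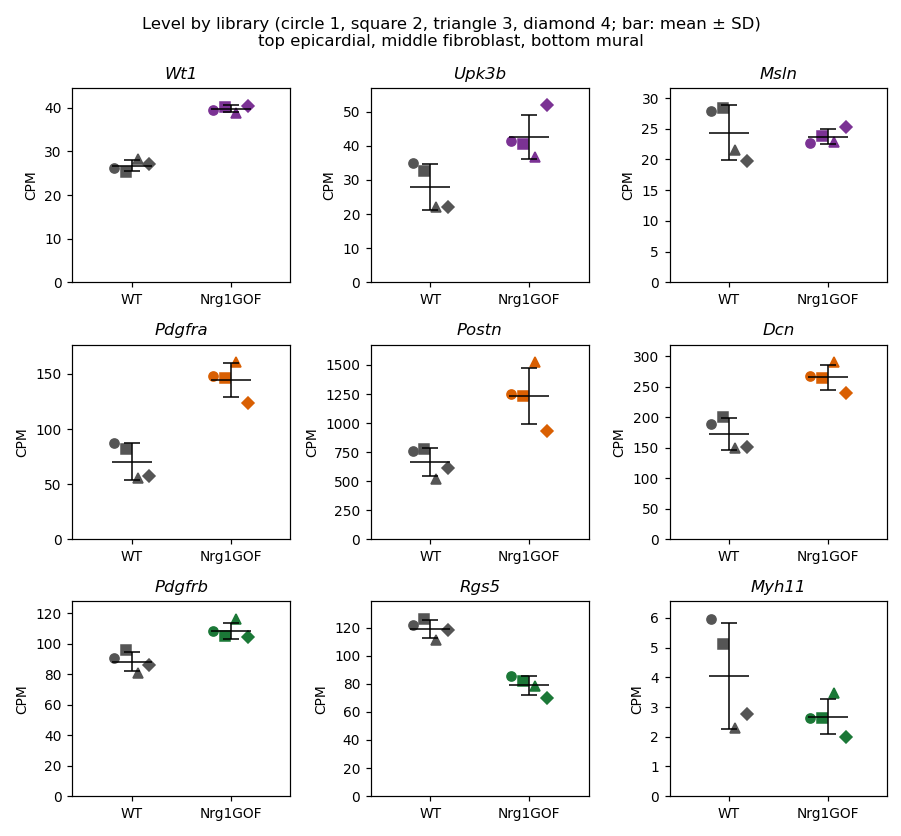
Level in CPM (vertical axis, from 0) in each library for 3 epicardial (top), 3 fibroblast (middle) and 3 mural genes (bottom). Marker shape gives the library number, and bars give mean ± SD of 4 libraries. The groups are apart except for *Msln* and *Myh11*, and of the 7 genes with separate groups *Rgs5* alone is lower in *Nrg1GOF*. The points of WT libraries 1 and 2 lie above those of WT libraries 3 and 4 in 8 of the 9 panels, *Wt1* being the exception.

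*Lum*, which encodes lumican, lies next to *Dcn* on chromosome 10 (97565128 to 97572703, with *Dcn* at 97479609 to 97518143). Its level was 115, 123, 155 and 86.9 CPM in *Nrg1GOF* and 60.5, 60.4, 32.4 and 40.9 CPM in WT. It rose more than *Dcn* in fold (log2 fold change 1.31, SE 0.22, edgeR adjusted p = 0.00185). The third small leucine-rich proteoglycan, *Ogn* (osteoglycin), was at 67.2, 63.1, 63.3 and 57.5 CPM against 49.1, 48.0, 38.8 and 37.5 CPM, a rise of 0.54 (SE 0.10, edgeR adjusted p = 0.00254). *Meox1*, a homeobox factor, had the largest fold change of all 41 genes. It was at 54.9, 57.2, 67.6 and 54.0 CPM against 18.8, 18.9, 7.48 and 12 CPM, which is 4.11-fold (log2 fold change 2.04, SE 0.24, edgeR adjusted p = 0.00029). The lowest *Nrg1GOF* library was far above the highest WT library, and the log2 fold change was 1.63 against the first WT pair and 2.59 against the second.

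*Ddr2*, a collagen receptor of fibroblasts, was at 27, 24.9, 32.7 and 23.3 CPM against 20.4, 22.5, 12.7 and 16.6 CPM. The gap between the groups was small, and its rise of 0.59 (SE 0.17, edgeR adjusted p = 0.0269) was lost without *Nrg1GOF* library 1 (0.0585), 2 (0.0505) or 3 (0.0717) or WT library 4 (0.0710), and against WT libraries 1 and 2 (0.109). *Vim*, the intermediate filament protein of mesenchymal and endothelial cells, was at 1208 to 1365 CPM against 1039.7 to 1111 CPM and rose by 0.27 (SE 0.06, edgeR adjusted p = 0.00652), a call lost with the WT pairs summed to 1 sample each (0.0672). *Thy1*, a surface glycoprotein of fibroblasts and other cells, was at 5.26 to 6.14 CPM against 4.57 to 6.71 CPM (log2 fold change 0.05, edgeR adjusted p = 0.837). The glypican *Gpc3* was at 349.8 to 392 CPM against 329 to 357 CPM (0.08, edgeR adjusted p = 0.324). *Thy1* and *Gpc3* overlapped between the groups.

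Of 11 further fibroblast genes, 9 rose and 1 fell (median log2 fold change 0.76), with 7 higher and 1 lower against WT libraries 1 and 2 and 9 higher and 1 lower against WT libraries 3 and 4. The highest were *Pdgfrl*, a secreted relative of the PDGF receptors (7.35 to 11.1 CPM against 1.01 to 3.93 CPM; 1.68, SE 0.34, edgeR adjusted p = 0.00470), and *Cthrc1*, a secreted collagen triple helix protein (1.01, SE 0.31, edgeR adjusted p = 0.0351). *Cthrc1* lost its call under 7 of 21 alternatives. The gene that fell was *Scara5*, a ferritin receptor, at 3.45 to 4.83 CPM against 5.98 to 7.86 CPM (-0.73, SE 0.16, edgeR adjusted p = 0.00679).

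Matrix genes rose in 11 of 12 cases. *Fn1*, which encodes fibronectin, was at 1668, 1389.6, 1404 and 1340.2 CPM in *Nrg1GOF* and at 977, 1113, 814 and 778 CPM in WT (log2 fold change 0.66, SE 0.12, edgeR adjusted p = 0.00263). The fibulins connect elastic fibres and basement membranes. *Fbln1* was at 156, 182, 188 and 158 CPM against 96.9, 99.2, 81.7 and 90.8 CPM, with a narrow WT group and a rise of 0.89 (SE 0.08, edgeR adjusted p = 8.08e-05). *Fbln2* was at 177, 186, 198 and 183 CPM against 136, 136, 86.5 and 91 CPM, with WT split into its pairs and a rise of 0.73 (SE 0.15, edgeR adjusted p = 0.00496).

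Elastic fibres have a core of elastin on a scaffold of fibrillin and microfibril-associated proteins. *Mfap4*, a microfibril-associated glycoprotein, was at 119, 138, 154 and 117 CPM in *Nrg1GOF* and at 39.6, 46.4, 25.4 and 30.9 CPM in WT. At 3.72-fold (log2 fold change 1.90, SE 0.17, edgeR adjusted p = 7.18e-05) it had the largest change of the matrix class. *Fbn1* (fibrillin-1) was at 416, 338, 346 and 294 CPM against 242, 277, 136 and 154 CPM. Its rise of 0.79 (SE 0.21, edgeR adjusted p = 0.0209) was lost without *Nrg1GOF* library 1 (0.0612) or WT library 4 (0.0555). *Eln*, elastin itself, was at 203, 236, 289.5 and 187 CPM against 197, 209, 59.0 and 70.1 CPM. WT libraries 1 and 2 lay within the range of *Nrg1GOF*, whereas WT libraries 3 and 4 were far lower, and the log2 fold change of 0.78 (SE 0.38) did not pass the test (edgeR adjusted p = 0.163). Against WT libraries 3 and 4 alone it was 1.84 (edgeR adjusted p = 0.000262) and against the first pair 0.18 (0.474). *Mfap5* was at 5.81 to 6.99 CPM against 3.77 to 5.18 CPM (0.43, SE 0.14, edgeR adjusted p = 0.0421), a call that was lost when any 1 library was left out (0.0511 to 0.106).

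The 3 lysyl oxidases, which cross-link collagen and elastin, rose together. *Lox* was at 99.7, 96.3, 92.7 and 83.8 CPM in *Nrg1GOF* and at 55.9, 58.4, 38.1 and 40.0 CPM in WT (log2 fold change 0.96, SE 0.14, edgeR adjusted p = 0.000779). *Loxl1* was at 67.9, 90.8, 87.8 and 94.3 CPM against 45.7, 46.4, 36.4 and 34.3 CPM (1.06, SE 0.13, edgeR adjusted p = 0.00029). *Loxl2*, the most abundant, was at 495, 505, 486 and 505 CPM against 374, 369.5, 296 and 281 CPM (0.59, SE 0.09, edgeR adjusted p = 0.00131). In each, all *Nrg1GOF* libraries exceeded all WT libraries, and the call held under each of the 21 alternatives.

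*Sparc* and *Mgp* completed the class. *Sparc*, a calcium-binding matricellular protein (osteonectin), was at 1825, 1913, 1713 and 1869.6 CPM in *Nrg1GOF* and at 1291, 1264, 1227 and 1182 CPM in WT. Both groups were tight (log2 fold change 0.56, SE 0.06, edgeR adjusted p = 0.000107). *Mgp*, matrix Gla protein, an inhibitor of calcification, was at 82.9, 103, 85.9 and 90.8 CPM against 48.6, 46.6, 32.0 and 37.5 CPM. It rose 2.20-fold (1.14, SE 0.13, edgeR adjusted p = 0.000211).

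**Figure D4:**
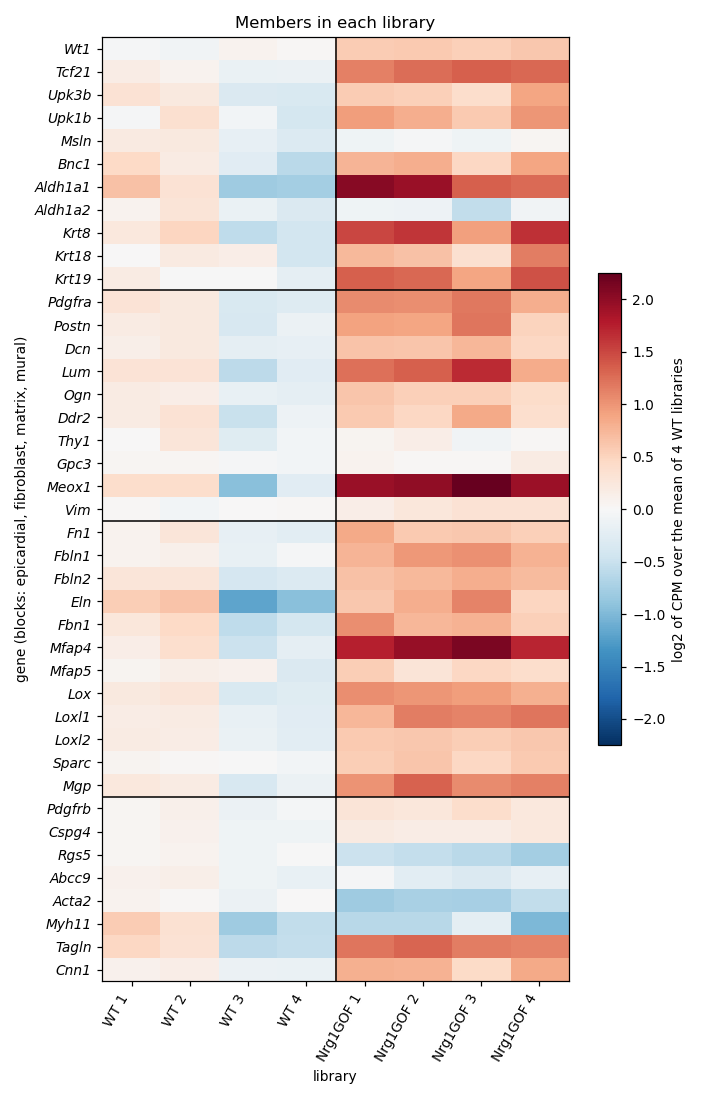
Each gene (rows, in epicardial, fibroblast, matrix and mural blocks) in each library (columns), coloured by the log2 of its CPM over the mean of the 4 WT libraries. The *Nrg1GOF* columns are red for most rows, deepest in *Meox1*, *Mfap4* and *Aldh1a1*. They are blue in *Rgs5*, *Acta2* and *Myh11*, and mostly paler blue in *Aldh1a2* and *Abcc9*. Of these blue rows, *Myh11*, *Aldh1a2* and *Abcc9* were not called. WT libraries 3 and 4 are bluer than WT libraries 1 and 2 in most rows, most of all in *Eln*.

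Mural genes moved in opposite directions. *Pdgfrb*, the receptor through which PDGF-B recruits pericytes and smooth muscle cells, was at 108, 105, 116 and 104 CPM in *Nrg1GOF* and at 90.5, 95.6, 80.8 and 86.0 CPM in WT. The groups were apart by a small margin (log2 fold change 0.29, SE 0.06, edgeR adjusted p = 0.00743), and the call was lost against WT libraries 1 and 2 (0.22, edgeR adjusted p = 0.0644). *Rgs5*, a regulator of G-protein signalling and a marker of pericytes, was at 85.3, 81.8, 78.3 and 69.8 CPM against 122, 126, 111 and 118 CPM. It was lower in each *Nrg1GOF* library than in any WT library (-0.59, SE 0.07, edgeR adjusted p = 0.000277), by -0.65 against the first WT pair and -0.52 against the second. The ratio of *Rgs5* to *Pdgfrb* within a library was 0.674 to 0.787 in *Nrg1GOF* against 1.32 to 1.37 in WT, where both pairs had nearly the same value.

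*Cspg4*, the NG2 proteoglycan, was at 125 to 131 CPM in *Nrg1GOF* and 104 to 119 CPM in WT (log2 fold change 0.20, SE 0.06, edgeR adjusted p = 0.0267). Its call was lost without *Nrg1GOF* library 1 (0.0544) or 2 (0.0602), or WT library 3 (0.0821) or 4 (0.0796), and with WT libraries 1 and 2 as the sole controls (0.12, edgeR adjusted p = 0.219). *Abcc9*, the sulfonylurea receptor subunit of a potassium channel of pericytes and muscle, was at 208 to 257 CPM against 234 to 288 CPM. It overlapped and was not called (-0.19, SE 0.09, edgeR adjusted p = 0.126), but was lower against WT libraries 1 and 2 alone (-0.31, edgeR adjusted p = 0.0374) and at -0.06 against WT libraries 3 and 4 (edgeR adjusted p = 0.657). Of 7 further pericyte genes 6 were tested, of which *Mcam*, a cell adhesion molecule, rose (394 to 420.4 CPM against 328 to 366 CPM; 0.26, SE 0.05, edgeR adjusted p = 0.00575) and *Kcnj8* fell (-0.33, SE 0.10, edgeR adjusted p = 0.0391). *Kcnj8* encodes the pore subunit that joins with the product of *Abcc9*, its neighbour on chromosome 6 (142564837 to 142571614, with *Abcc9* at 142587862 to 142702315), and lost its call under 12 of 21 alternatives. The *Mcam* call was lost under 1, and the count of 2 called fell to 1 without any 1 library other than *Nrg1GOF* library 4, and to 0 with the WT pairs summed. Over the 6 tested the median log2 fold change was 0.04, and *Notch3* (0.01), *Ndufa4l2* (0.14) and *Des* (0.07) were not called. *Higd1b*, a pericyte gene named after its values were seen, was at 0.250 to 0.667 CPM against 0.726 to 0.971 CPM and did not pass the test (-0.70, SE 0.30, edgeR adjusted p = 0.117). Its lowest value, in *Nrg1GOF* library 4, was under the 0.375 CPM that 3 counts give there. *Vtn*, also named afterwards, was at 0 to 0.0855 CPM against 0.115 to 0.566 CPM. It did not pass the filter on low counts with all libraries, and was called lower against WT libraries 3 and 4 alone (edgeR adjusted p = 0.00925).

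The contractile genes of smooth muscle were split. *Acta2*, smooth muscle alpha-actin, which is also made by embryonic cardiomyocytes, was at 622, 657, 645 and 739 CPM in *Nrg1GOF* and at 1149.9, 1108, 991 and 1087 CPM in WT. It fell in each library (-0.70, SE 0.07, edgeR adjusted p = 0.000111). *Tagln* (transgelin, or SM22) was at 63.5, 68.3, 61.6 and 60.0 CPM against 38.3, 34.9, 18.5 and 19.0 CPM. It rose by 1.20 (SE 0.22, edgeR adjusted p = 0.00313), by 0.79 against the first WT pair and 1.77 against the second. *Cnn1* (calponin 1) was at 209, 206, 162 and 216 CPM against 128, 133, 109 and 108 CPM and rose by 0.73 (SE 0.10, edgeR adjusted p = 0.000779). Both actin-binding proteins were thus higher in each *Nrg1GOF* library while *Acta2* was lower. *Myh11*, the myosin heavy chain that defines mature smooth muscle, was at a low level, with as few as 16 counts in a library. Its level was 2.63, 2.62, 3.46 and 2.0 CPM against 5.96, 5.13, 2.31 and 2.75 CPM. The groups overlapped, and its log2 fold change of -0.56 (SE 0.32) was not called (edgeR adjusted p = 0.227). It was -1.02 against WT libraries 1 and 2 (edgeR adjusted p = 0.0141) and 0.12 against WT libraries 3 and 4.

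Within a library, *Acta2* was 9.61 to 12.3 times *Tagln* in *Nrg1GOF* and 30 to 57.3 times in WT, and 2.98 to 3.98 times *Cnn1* against 8.30 to 10.1 times. *Pdgfra* over *Pdgfrb* went the other way, at 1.19 to 1.39 against 0.668 to 0.960. *Pdgfra* over *Wt1*, the remaining ratio computed, overlapped between the groups, at 3.05 to 4.12 against 1.96 to 3.32. These ratios were chosen after the levels had been seen, and are a description without a test.

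**Figure D5:**
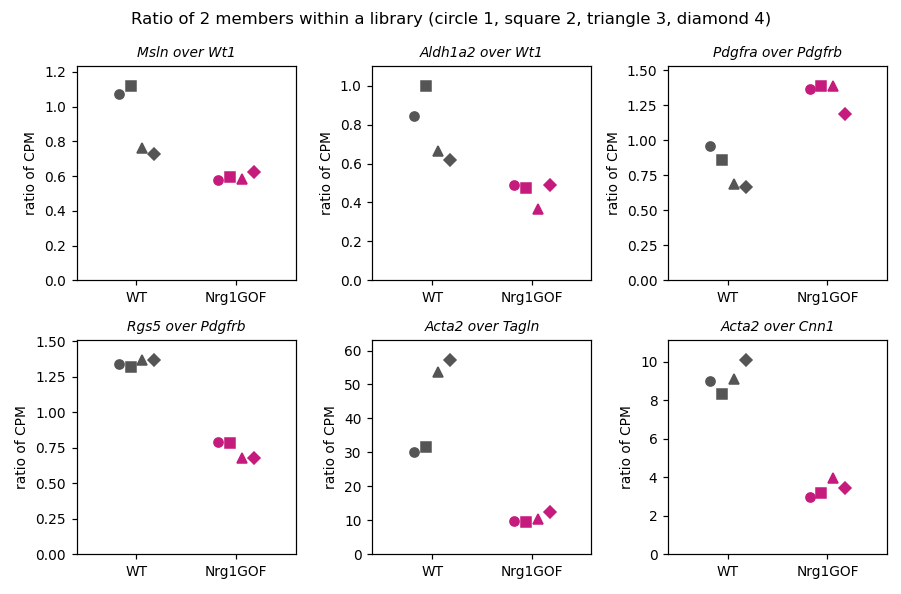
Ratio of the CPM of 2 genes within each library (vertical axis, from 0), with marker shape giving the library number. The groups do not overlap in the 6 panels drawn, whereas *Pdgfra* over *Wt1*, not drawn, overlaps. *Rgs5* over *Pdgfrb* is nearly constant in WT (1.32 to 1.37), while *Acta2* over *Tagln* differs between the WT pairs (30 and 31.7 in libraries 1 and 2, 53.6 and 57.3 in libraries 3 and 4).

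Smooth muscle promoters are known for CArG boxes, which bind serum response factor, and MCAT elements, which bind TEAD factors. Windows of 250 bases before the transcription start (RefSeq, GRCm38.p6) could be matched for 22 of the 41 genes. Because *Acta2*, *Rgs5* and *Cnn1* are the mural genes with a matched window that fell or rose most, their sequences are shown, 5′ to 3′ on the strand of the gene, with the motif in capitals. The genes and motifs were chosen after the values had been seen. The *Acta2* stretches lie at chr19:34255503-34255531, chr19:34255438-34255467 and chr19:34255388-34255417 (minus strand), and their motifs begin 147, 84 and 34 bases before the RefSeq start. GENCODE begins *Acta2* further upstream, at 34255590, so that 217 of the 250 bases lie in an exon there and the stretches shown are inside the gene in that annotation. For *Cnn1*, 37 bases of the window lie in a GENCODE exon and were left out, which leaves 213.
Acta2 MCAT: gagcagaacagAGGAATGcagtggaagag
Acta2 CArG type, distal: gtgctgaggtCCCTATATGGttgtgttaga
Acta2 CArG type, proximal: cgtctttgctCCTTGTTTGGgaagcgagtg
The *Rgs5* window is chr1:169655251-169655500 and the *Cnn1* stretch is chr9:22099003-22099215 (both plus strand), and no motif searched for was found in either.
Rgs5: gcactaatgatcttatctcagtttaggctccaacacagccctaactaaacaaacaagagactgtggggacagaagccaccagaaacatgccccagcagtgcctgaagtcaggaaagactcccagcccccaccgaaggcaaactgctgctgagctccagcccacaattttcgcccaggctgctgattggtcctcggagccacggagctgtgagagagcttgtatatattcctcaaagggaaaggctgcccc
Cnn1: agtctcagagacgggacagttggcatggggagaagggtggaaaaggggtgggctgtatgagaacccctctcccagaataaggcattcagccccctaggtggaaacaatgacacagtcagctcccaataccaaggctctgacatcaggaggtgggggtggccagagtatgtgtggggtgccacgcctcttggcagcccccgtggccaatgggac

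The strict CArG box (CC, then 6 bases that are A or T, then GG) occurred in 1.47% of 32851 windows and in 0 of the 22 matched. With at most 1 G or C allowed in its core it occurred in 8.59% of windows and in *Acta2* and *Fbln2*. MCAT, searched as AGGAATG, occurred in 4.51% of windows and in *Acta2* and *Ogn*, and TATAAA in 12.4% and in *Ddr2*, *Ogn*, *Postn* and *Vim*. Both strands were searched. A match describes letters in the window only. *Ogn* and *Fbln2*, which share a motif with *Acta2*, rose, whereas *Acta2* fell, and any link between motif and direction was not tested.

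Of 9 further smooth muscle genes 8 were tested, and 3 rose and 2 fell. Without *Nrg1GOF* library 1 or 2 or WT library 1, 3 or 4, the 5 called became 3, as they did against WT libraries 1 and 2 (2 higher, 1 lower) and with the WT pairs summed. Against WT libraries 3 and 4 they were 4 (3 higher, 1 lower). *Itga8*, an integrin of smooth muscle and fibroblasts, was at 48.5 to 63.9 CPM against 25.4 to 40.9 CPM (0.84, SE 0.16, edgeR adjusted p = 0.00383). *Actg2*, the enteric smooth muscle actin, was at 2.0 to 3.22 CPM against 1.15 to 1.85 CPM (0.76, SE 0.24, edgeR adjusted p = 0.0396), with the call lost under 9 of 21 alternatives. *Myocd* encodes myocardin, the partner of serum response factor in heart and smooth muscle, and fell, with 59.7 to 72.0 CPM against 87.7 to 102 CPM in WT (-0.50, SE 0.07, edgeR adjusted p = 0.000833). *Srf* fell by 0.22 on the log2 scale (SE 0.06, edgeR adjusted p = 0.0306), a call lost under 10 of 21 alternatives.

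Expressed per kilobase of exon, so that genes can be compared with each other, the mean level in WT was highest for *Acta2*, at 494 CPM per kb, followed by *Sparc* (328), *Vim* (229) and *Gpc3* (128). In *Nrg1GOF* the first place was taken by *Sparc* (483 CPM per kb), with *Acta2* at 303, *Vim* at 276, *Postn* at 142, *Gpc3* at 136 and *Fn1* at 124. Epicardial genes were far less abundant. The highest of them in WT were *Tcf21* (10.3 CPM per kb) and *Krt19* (10), which reached 24.8 and 23.9 in *Nrg1GOF*. The lowest of the 41 were *Aldh1a1* (0.396 in WT and 1.29 in *Nrg1GOF*) and *Myh11* (0.531 and 0.353).

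The 9 genes named first for their cell types, 3 each, differed by class. Epicardial *Wt1* and *Upk3b* rose while *Msln* did not, fibroblast *Pdgfra*, *Postn* and *Dcn* all rose, and among the mural genes *Pdgfrb* rose, *Rgs5* fell and *Myh11* was not called. Their summed level was 98.5 to 118 CPM against 68.9 to 88.9 CPM for the epicardial trio and 1298 to 1974 CPM against 721 to 1055 CPM for the fibroblast trio, with no overlap in either. The mural trio overlapped, at 175 to 197 CPM against 194 to 227 CPM. Summed over whole classes, the matrix genes were at 4929 to 5316 CPM against 2793 to 3670.2 CPM, and the 8 mural genes, dominated by *Acta2*, at 1399 to 1553 CPM against 1662 to 1929 CPM.

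Markers of other cells of the ventricle moved with genotype as well, and their part in the results above was not tested. Of 10 cardiomyocyte genes, 6 fell and 0 rose (median -0.38), and their sum was 30098 to 35435 CPM in *Nrg1GOF* against 39872 to 43139.8 CPM in WT. Only 3 were called with the WT pairs summed, and against WT libraries 3 and 4 alone 5 were lower and *Myh6* was higher (1.03, edgeR adjusted p = 0.000326), whereas against WT libraries 1 and 2 alone 5 were lower and 0 higher. *Pln* (phospholamban, -0.66, SE 0.08, edgeR adjusted p = 0.000271) and *Myh7* (-0.48, SE 0.07, edgeR adjusted p = 0.000867) fell most among those called. All 8 macrophage genes rose (median 1.08; 7 against either WT pair alone), with sums of 128 to 149 CPM against 67.6 to 73.6 CPM, led by *Lyz2* (1.20, SE 0.10, edgeR adjusted p = 5.94e-05) and *C1qb* (1.18, SE 0.11, edgeR adjusted p = 7.31e-05). Of 7 atrial genes 4 rose (median 0.42; sums 1665 to 1829 CPM against 1048 to 1171 CPM; 3 against WT libraries 1 and 2 alone and 5 against WT libraries 3 and 4 alone), with *Myl7* at 212 to 377 CPM against 88.9 to 176 CPM and *Myl4* at 1186 to 1500.1 CPM against 839 to 885 CPM.

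For valve mesenchyme, which also makes periostin, fibulins and other matrix proteins, a list of 9 genes was examined. Of these, 7 were tested and 6 rose (median 1.14), with sums of 172 to 221 CPM against 84.5 to 111 CPM. Against WT libraries 1 and 2 alone 4 rose, and against WT libraries 3 and 4 alone 6. The highest were *Msx2* (1.39, SE 0.36, edgeR adjusted p = 0.0160, lost under 2 alternatives) and *Nfatc1* (1.21, SE 0.07, edgeR adjusted p = 4.22e-06), the latter also a gene of the endocardium. *Nfatc1* was at 71.3 to 80.7 CPM against 30.4 to 36.1 CPM, a large part of the sums, which therefore do not stand for valve mesenchyme alone. Of 8 endothelial genes 3 rose (median 0.08; sums 1208 to 1260.0 CPM against 1109 to 1176 CPM; 4 against WT libraries 1 and 2 alone and 3 against WT libraries 3 and 4 alone), with *Emcn* at 0.67 (SE 0.08, edgeR adjusted p = 0.000202) and *Tek* at 0.45 (SE 0.07, edgeR adjusted p = 0.00143). None of 7 red blood cell genes was called by edgeR, DESeq2 or limma-voom, and 0 had an unadjusted p under 0.05 in edgeR. Against WT libraries 1 and 2 alone 5 of them were lower (*Hbb-bs* at -0.71, edgeR adjusted p = 0.0253), and against WT libraries 3 and 4 alone 3 were higher (*Hbb-bs* at 0.67, edgeR adjusted p = 0.0389). Their sums were 5387 to 8851 CPM in *Nrg1GOF* and 4383 to 12977 CPM in WT, and each of the 7 was higher in WT libraries 1 and 2 than in 3 and 4, as were most of the genes described here. Of 6 neural crest and Schwann cell genes 2 were tested and 0 were called by edgeR, DESeq2 or limma-voom, with 1 at an unadjusted p under 0.05 in edgeR (*Ednrb*). Without *Nrg1GOF* library 3, 1 was called, as was 1 higher against WT libraries 1 and 2 alone and 1 lower against WT libraries 3 and 4 alone. The 5 genes of liver and lung summed to at most 0.681 CPM in any library, and *Sftpc* and *Scgb1a1* were listed at 0 in all 8, which allows up to 0.375 CPM in the shallowest library.

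Read assignment limits some values. Where a read fits more than 1 gene, an expected count takes only a part of it. Counts were whole in all 8 libraries for 31 of the 41 genes. They were fractional in all 8 for *Ddr2*, *Fn1*, *Loxl2*, *Abcc9*, *Myh11* and *Acta2*. For *Sparc* they were fractional in 6, for *Aldh1a1* in 5, and for *Lum* and *Eln* in 1. The protein of *Acta2* is nearly the same as cardiac actin (*Actc1*), and how far the coding sequences differ was not examined. *Actc1* was at 9324 to 11257 CPM in *Nrg1GOF* and 10149.6 to 10740.5 CPM in WT (log2 fold change 0.00, SE 0.06, edgeR adjusted p = 0.992), far above *Acta2*, and the part of shared reads in the level of *Acta2* was not tested. For 12 genes an exon overlaps one on the opposite strand, among them *Mfap4* (with *Mapk7*; 0.30, edgeR adjusted p = 0.0907) and *Tagln* (with *Pcsk7*; -0.00, edgeR adjusted p = 0.969). The library kit kept the strand, but the setting used for counting was not given in the sources used here.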

How the data were processed

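Ventricle poly(A) RNA was sequenced from 4 *Nrg1GOF* and 4 WT embryos at E15.5, with directional libraries and single reads of 60 bases, from 100 ng of RNA. Expected counts for each gene, made with RSEM, were deposited by the authors, unscaled for depth or length. The submitters' processing notes name cutadapt, RSEM 1.3.1 and GRCm38. An aligner and the strand setting were not given in the sources used here. Of 53465 gene identifiers, 53274 had a symbol and 191 kept their identifier.

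Expected counts were rounded and filtered with filterByExpr. Both genotypes were compared in edgeR 4.0.16 (R 4.3.3) with its quasi-likelihood F-test, genotype being the only term, two-sided, and p was adjusted by Benjamini-Hochberg over 15580 genes (called under 0.05). The study, too, tested with a generalised linear model in edgeR at that threshold. SE is the absolute log2 fold change over the square root of F. Levels per kilobase used exon lengths of GENCODE M21 on GRCm38, a different annotation from the one counted on. The groups and replicate numbers come from the sample titles. Nothing in the labels links equal numbers of the 2 genotypes, and p-values measure the spread between these samples only.

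The 41 genes were described by class, with values per library for *Wt1*, *Upk3b*, *Msln*, *Pdgfra*, *Postn*, *Dcn*, *Pdgfrb*, *Rgs5*, *Myh11* and every further gene called with an absolute log2 fold change of at least 0.5. Of other lists, at most 2 called genes with the highest and 2 with the lowest change were named, and 1 gene that this rule selects is not reported here. The genes, classes and lists were chosen with earlier results of these data known. The 21 alternatives were DESeq2 1.42.0, limma-voom (limma 3.58.1), a likelihood ratio test in edgeR, library totals alone, RLE scaling, 2 other filters, unrounded counts, a replicate block, thinning to the smallest total, WT pairs summed, each WT pair alone, and leaving out each of 8 libraries. The test was run first on simulated data. Library totals were 8038641 to 26786039 counts. Limits taken as 3 counts cover counting error only, since reads carried no molecular identifiers.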

Additional observations from a re-analysis of the deposited data

Results flagged for a closer look

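With 82 groups of 4 values checked (41 genes in 2 genotypes), 2 held a library whose gap to its nearest neighbour was unusually wide for the range of the group. *Aldh1a2*, the retinoic acid enzyme of the epicardium, was at 14.2 CPM in *Nrg1GOF* library 3 against 19.2 to 19.8 CPM in the other 3 (gap over range 0.898). *Mfap5* was at 3.77 CPM in WT library 4 against 4.97 to 5.18 CPM in the other 3 (0.848). Both exceeded the 95% critical value of Dixon for 4 values, which chance alone passes in about 1 in 20 groups, or 4.1 of 82.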

How the results depend on the processing

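Each of the 41 fold changes was recomputed under 21 alternatives, 861 values in all. Of these 808 kept their direction and side of the threshold, 43 lost the call, 3 gained one and 7 changed sign, all of the last in genes not called at first. The number of genes called was 4467, with 3239 to 4261 when 1 library was left out and 2464 with the WT pairs summed. Of the 41 genes, 34 were called, against 27 to 35 over all alternatives. With WT libraries 1 and 2 alone, 4 members were called lower, all of them mural (*Rgs5*, *Acta2*, *Abcc9* and *Myh11*), and 2 mural genes were called higher. With WT libraries 3 and 4 alone, the log2 fold change of Aldh1a2 was 0.03, that of Msln 0.20 and that of Myh11 0.12; with WT libraries 1 and 2 alone that of Thy1 was -0.10. Leaving out 1 library, the log2 fold change of Msln ranged from -0.14 to 0.031 and that of Thy1 from -0.035 to 0.15. With the WT pairs summed, *Bnc1* (edgeR adjusted p = 0.0674), *Upk3b* (0.0656), *Ddr2* (0.0615), *Krt18* (0.0507), *Vim* (0.0672), *Cspg4* (0.0957) and *Mfap5* also lost their calls. The calls most often lost were those of *Mfap5* (13 alternatives), *Cspg4* (7), *Bnc1* (6), *Ddr2* (6) and *Upk3b* (5). With library totals alone the median log2 fold change of all genes was 0.03 and the calls of the 41 genes numbered 34. With the replicate number as a replicate block, 4524 genes and 33 members were called, and *Mfap5* was lost (edgeR adjusted p = 0.0644). Libraries of equal number correlated at 0.0671 to 0.257 in their deviations from the group means, against -0.351 to 0.289 for other numbers, so the numbers were not taken as pairs. The largest SE was that of *Eln* (0.38), followed by *Aldh1a1* (0.34) and *Myh11* (0.32), of which the last 2 had as few as 28 and 16 counts in a library. Thinning to the smallest total left 33 of the calls.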

Other observations

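Factors that drive epithelial cells into mesenchyme, and ligands and vitamin A genes that act around the epicardium, were examined in 3 further lists. Of 8 genes of epithelial-mesenchymal transition 7 were tested, and 3 rose and 1 fell (median log2 fold change 0.43). Against WT libraries 1 and 2 alone 2 were higher and 1 lower (median 0.24), and against WT libraries 3 and 4 alone 5 were higher and 1 lower (median 0.65). *Snai1* was at 10.3 to 15.7 CPM in *Nrg1GOF* against 4.85 to 6.88 CPM in WT (1.14, SE 0.16, edgeR adjusted p = 0.000755). *Twist2* was near the lower limit, at 1.38 to 2.14 CPM against 0.246 to 0.917 CPM (1.42, SE 0.37, edgeR adjusted p = 0.0168), and lost its call under 1 alternative. *Cdh2*, the N-cadherin of cardiomyocytes and mesenchyme, fell, with 456 to 509.8 CPM against 675 to 699.9 CPM in WT (-0.51, SE 0.05, edgeR adjusted p = 0.000122).

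Of 13 retinoid genes 9 were tested, and 6 rose and 1 fell (median 0.51), although only 3 of the 6 had groups that did not overlap. The 7 called became 4 without *Nrg1GOF* library 1 or WT library 4, and 3 without *Nrg1GOF* library 2 or 3. Against WT libraries 1 and 2 alone 3 were called, against WT libraries 3 and 4 alone 5, all higher, and with the WT pairs summed 2. *Cyp26a1*, which degrades retinoic acid, was at 0.50 to 1.54 CPM against 0.0404 to 0.459 CPM (2.12, SE 0.56, edgeR adjusted p = 0.0185), with values in WT near the level of 3 counts and the call lost under 5 of 19 alternatives. *Rxra*, a retinoid X receptor, fell by 0.19 on the log2 scale (SE 0.05, edgeR adjusted p = 0.0264), lost under 10 of 21 alternatives. Of 4 PDGF ligands, *Pdgfc* rose, with 10.8 to 14.7 CPM against 5.24 to 6.88 CPM in WT (1.05, SE 0.14, edgeR adjusted p = 0.000501), and *Pdgfa*, *Pdgfb* and *Pdgfd* were not called.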
